A study of Macaca mulatta with 28 samples.

Results

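Of the 28 rhesus macaques in the study, 14 were drinkers labelled very heavy (9 animals) or heavy (5 animals), and gene expression in the ventral tegmental area (VTA) was compared between these categories. Members were chosen by the drinking phenotype given for each animal. All 14 were male animals of genotype WT with the treatment Ethanol. After an induction phase they drank ethanol voluntarily from an operant panel with open access for most of each day, their access was interrupted by 3 forced abstinences, and the VTA was taken as a tissue punch at the end of the last one, which lasted 30 days. The 11 controls were calorically yoked or housing controls, and the remaining drinkers were 2 binge animals and 1 low animal. The animals sorted themselves into the categories by their own intake and were not assigned to them, and the limits that divide very heavy from heavy are not given in the sources used here. Cohort 1 held 3 very heavy and 4 heavy drinkers and cohort 2 held 6 and 1, so cohort was a covariate in the fits except where another fit is named. Heavy drinkers 1 to 4 and very heavy drinkers 1 to 3 belong to cohort 1, and heavy drinker 5 and very heavy drinkers 4 to 9 to cohort 2.

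The VTA contains the cell bodies of the mesolimbic dopamine neurons, which project to the nucleus accumbens and take part in reward and motivation. Tyrosine hydroxylase makes the dopamine precursor, the vesicular transporter SLC18A2 loads dopamine into vesicles, and the dopamine transporter SLC6A3 takes it back up after release. GABA neurons, glutamate neurons and glia lie among these cells, and ethanol is known to act on several of their ion channels and receptors.

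One library per animal had been sequenced. Total counts lay between 14338555 and 24845490 in the very heavy and between 20978323 and 26742953 in the heavy drinkers, and the difference was not significant (p = 0.216, exact two-sided permutation test within cohort, 245 arrangements). Mitochondrially encoded transcripts took 42.5% to 58.2% of the counts in the very heavy and 41.6% to 56.2% in the heavy drinkers (p = 0.927, same exact test). No library resembled another as a repeat would, since the 91 pairs among the 14 animals had identical counts for 0.795% to 2.07% of 9052 transcripts with a mean of 50 or more. Each animal was therefore counted once, and p-values measure the spread between animals.

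No transcript passed the adjusted threshold between very heavy and heavy drinkers. In edgeR's quasi-likelihood test with cohort as a covariate, 0 of 12934 transcripts (0%) had an adjusted p under 0.05, and the lowest adjusted p was 0.973. At an unadjusted p under 0.05 there were 295 transcripts with higher values in the very heavy drinkers (2.28% of those tested) and 332 with lower values (2.57%). Those shares together, 4.85%, are near the threshold itself. With limma-voom there were 0 calls, and 673 of the 12934 transcripts reached the unadjusted threshold. DESeq2's Wald test gave 91 calls on the same counts, 30 higher and 61 lower, and 944 of the 12934 at the unadjusted threshold, more than the 627 of edgeR. Of those 91 calls, 75 were transcripts without a count in 3 or more animals and 14 were transcripts with 10 or more counts in every animal.

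The precision of the estimates differed between well-counted transcripts and the rest. Among the 7980 transcripts with 10 or more counts in each of the 14 animals, 61.7% of those tested, the median standard error of the log2 fold change was 0.21 (25th to 75th percentile 0.14 to 0.32) and the median absolute log2 fold change was 0.15. Only 62 of them (0.777%) differed by more than 1 on the log2 scale. The other transcripts had a median standard error of 1.37, and 2812 (21.7%) had no count in 3 or more animals. In the table each gene symbol stands for 1 annotated transcript, so reads of its other transcripts are not part of the value.

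**Figure D1:**
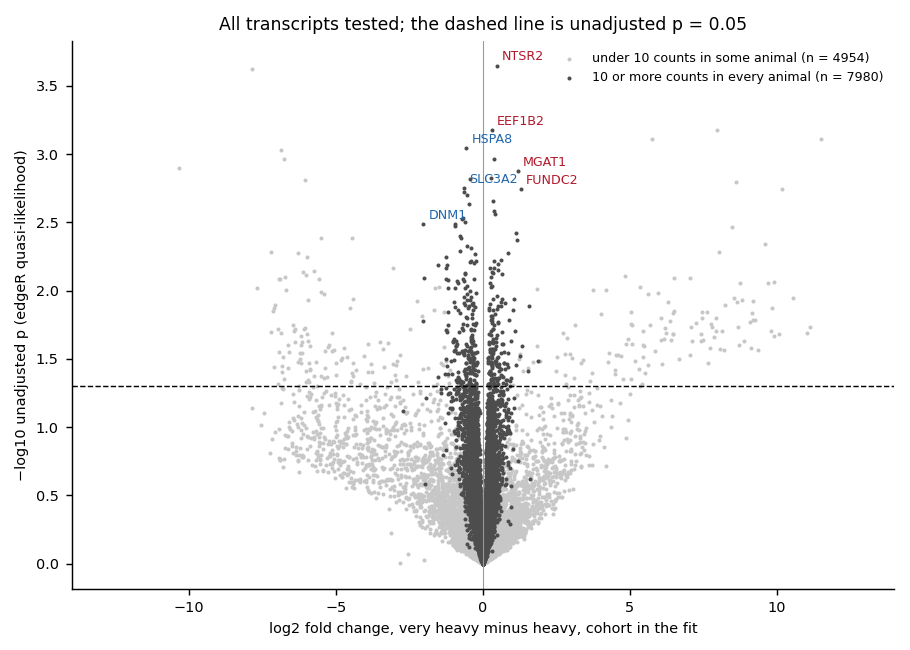
Unadjusted p (−log10, vertical axis) against the log2 fold change of very heavy minus heavy drinkers (horizontal axis) for all 12934 transcripts tested, 1 point each. The 7980 transcripts with 10 or more counts in every animal lie within a narrow band around 0, the wide arms are transcripts with fewer counts, and no transcript passed an adjusted p of 0.05.

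Among the transcripts with 10 or more counts in every animal, called well-detected here, the lowest unadjusted p-values belonged to NTSR2, EEF1B2 and TMA7 on the higher side and to HSPA8, PI4KA and SLC3A2 on the lower side. The 10 lowest in each direction are described. The p-values of the 20 ran from 0.000225 to 0.0038, and with edgeR each had an adjusted p of 0.973. Differences were estimated with the same sign in both cohorts for 20 of the 20, which were chosen from the pooled contrast, so their direction and their separation are a description. DESeq2 called 13 of the 20. By mRNA length, whose relation to the estimates is given further on, 7 of the 10 on the higher side were in the shortest and 0 in the longest of 5 groups, and on the lower side 1 was in the shortest and 5 in the longest. The plot of 8 of these transcripts by animal shows their values within each cohort.

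NTSR2, a neurotensin receptor that astrocytes express, had the lowest p of all transcripts tested. It lies on chromosome 13 at 97116050 to 97133990 of Mmul_10, on the plus strand. In cohort 1 its normalised counts (CPM, counts scaled to a common library total with factors from the trimmed mean of M values) were 117, 85.5 and 98.6 in very heavy drinkers 1 to 3 and 73.0, 65.8, 80.2 and 78.6 in heavy drinkers 1 to 4. In cohort 2 the 6 very heavy drinkers had 113 to 137 CPM (median 130.5) and the heavy drinker 87.5. Every very heavy drinker lay above every heavy drinker of its own cohort. The log2 fold change was 0.46 ± 0.09 (SE; n = 9 and 5; 95% interval 0.28 to 0.65), 0.42 in cohort 1 and 0.56 in cohort 2. The 11 controls ran from 86.9 to 152 CPM (median 103). Heavy drinkers 1 to 4 and very heavy drinker 2 (85.5 CPM) lay below every control. Heavy drinker 5 and the other very heavy drinkers lay within the control range.

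EEF1B2, a subunit of the factor that recharges elongation factor 1 with GTP, had 203, 199 and 186 CPM in the very heavy and 145, 148, 164 and 166 CPM in the heavy drinkers of cohort 1. In cohort 2 the very heavy drinkers had 147 to 170 CPM (median 163) against 136 in the heavy drinker. The groups were apart within each cohort but overlapped once the cohorts were pooled, and the log2 fold change was 0.30 ± 0.07 (SE). TMA7, a small protein associated with translation machinery, differed by 0.39 ± 0.10 and was likewise apart within each cohort. HMGB1, a chromatin protein that also acts as an inflammatory signal when released, had 239, 208 and 199 CPM in the very heavy against 141, 139, 176 and 177 CPM in the heavy drinkers of cohort 1. Its cohort 2 values were 167 to 190 against 156 CPM, and the fold change was 0.35 ± 0.09.

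MGAT1, which starts the building of complex N-glycans in the Golgi, was apart in all 14 animals. Its CPM were 30.0, 17.1 and 35.2 in the very heavy and 10.1, 8.45, 6.08 and 14.1 in the heavy drinkers of cohort 1. In cohort 2 they were 19.8 to 45.9 (median 22.5) and 16.7. All 9 very heavy drinkers lay above all 5 heavy drinkers, a property of 4 of the 12934 transcripts (0.0309%), and the log2 fold change was 1.18 ± 0.29 (SE). The controls spanned both groups, from 8.52 to 40.6 CPM (median 18.6). It differed by 1.49 in cohort 1 and by 0.64 in cohort 2.

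FUNDC2, a protein of the outer mitochondrial membrane, had 36.4, 15.5 and 24.2 CPM in the very heavy and 10.8, 7.41, 13.96 and 3.65 CPM in the heavy drinkers of cohort 1, and 12.2 to 26.6 CPM (median 18.4) against 9.90 in cohort 2. Its log2 fold change of 1.29 ± 0.33 was the largest on the higher side of the 20. DAPK2, a calcium-regulated kinase, differed by 1.12 ± 0.32 (SE) at 2.49 to 6.57 CPM in the very heavy and 1.52 to 3.27 CPM in the heavy drinkers. The remaining transcripts of this side had smaller differences. TRAPPC1, a part of a vesicle tethering complex, differed by 0.27 ± 0.07, SRI, a calcium-binding protein that acts on the ryanodine receptor, by 0.39 ± 0.11, and MEA1 by 0.40 ± 0.11. TRAPPC1 was also 1 of the 2 transcripts past an adjusted p of 0.05 for cohort itself, so its pooled medians, 96.5 CPM in the very heavy and 104 CPM in the heavy drinkers, run opposite to its difference within cohorts.

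On the lower side HSPA8, a constitutive chaperone that also strips clathrin from vesicles, had the lowest p of the well-detected transcripts (0.000903). Its CPM were 233, 251 and 198 in the very heavy and 401, 341, 243 and 299.6 in the heavy drinkers of cohort 1, where the ranges overlapped. In cohort 2 the very heavy drinkers had 274 to 410 CPM (median 341), all under the heavy drinker at 556. The log2 fold change was −0.57 ± 0.13 (SE). DNM1, the neuronal dynamin that pinches off endocytic vesicles, differed by −2.04 ± 0.57, the largest size among the 20, and its values were widely spread. They were 3.41 to 62.0 CPM (median 13.6) in the very heavy drinkers and 37.2, 35.9, 12.8, 6.01 and 84.1 CPM in heavy drinkers 1 to 5.

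SLC3A2, the heavy chain that carries amino acid transporters to the membrane, had 54.0, 34.0 and 64.1 CPM in the very heavy and 79.7, 77.8, 110.3 and 65.3 CPM in the heavy drinkers of cohort 1. In cohort 2 the values were 50.3 to 64.2 (median 56.9) and 78.2 CPM. All 9 very heavy drinkers lay below all 5 heavy drinkers, as for 9 of the 12934 transcripts (0.0696%), and the log2 fold change was −0.64 ± 0.17. The controls reached from 42.1 to 72.5 CPM (median 64.8), so that 4 of the 5 heavy drinkers, all but heavy drinker 4, lay above every control.

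RYR2, which releases calcium from internal stores, had 38.1, 42.7 and 28.6 CPM in the very heavy and 71.2, 41.6, 46.0 and 43.5 CPM in the heavy drinkers of cohort 1, and 23.8 to 44.9 CPM (median 31.9) against 65.9 in cohort 2. The log2 fold change was −0.66 ± 0.18, and 1 very heavy drinker overlapped the heavy range in cohort 1. UNC80, a subunit of the sodium leak channel complex, differed by −0.66 ± 0.17. PI4KA, a kinase that makes phosphatidylinositol 4-phosphate, differed by −0.43 ± 0.11. NDUFAF3, an assembly factor of respiratory complex I, differed by −0.55 ± 0.14, and PPP1R16B, a regulatory subunit of protein phosphatase 1, by −0.49 ± 0.13 with −0.68 in cohort 1 and −0.08 in cohort 2.

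FBXO41, a neuronal F-box protein, and GPN3, a small GTPase linked to RNA polymerase II, were apart within each cohort. FBXO41 had 5.68, 8.89 and 4.62 CPM in the very heavy and 12.6, 11.8, 9.61 and 12.0 CPM in the heavy drinkers of cohort 1, and 11.1 to 15.7 CPM against 18.6 in cohort 2. GPN3 had 8.67 to 10.9 CPM against 11.5 to 20.6 CPM in cohort 1 and 10.3 to 13.8 CPM against 17.1 in cohort 2. The log2 fold changes were −0.72 ± 0.20 and −0.62 ± 0.17.

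**Figure D2:**
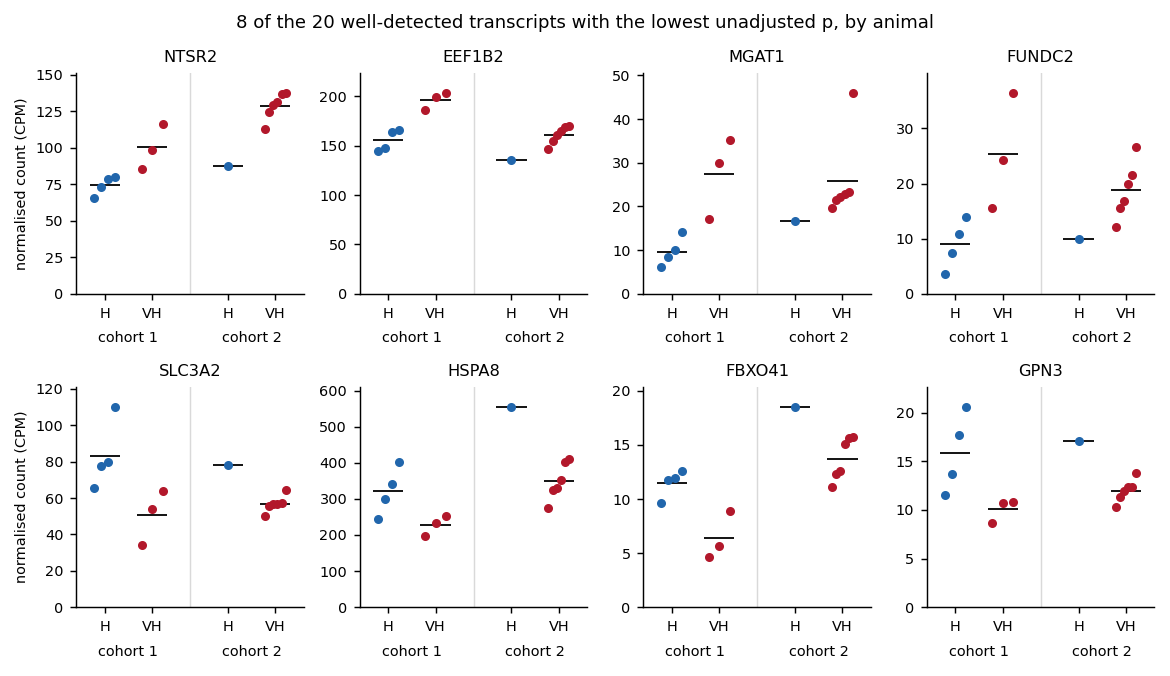
Normalised counts (CPM, vertical axes from 0) of 8 of the 20 well-detected transcripts with the lowest unadjusted p, 1 point per animal, for heavy (H, blue) and very heavy (VH, red) drinkers of cohort 1 (4 and 3 animals) and cohort 2 (1 and 6), with horizontal lines at the means. NTSR2, EEF1B2, MGAT1 and FUNDC2 were higher, and SLC3A2, FBXO41 and GPN3 lower, in every very heavy drinker than in every heavy drinker of the same cohort, while HSPA8 overlapped in cohort 1.

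Separation within cohorts was counted over all transcripts tested. Within each cohort every very heavy drinker lay above every heavy drinker for 41 transcripts (0.317%) and below for 40 (0.309%). Of these, 31 and 22 had 10 or more counts in every animal. Of the 20 transcripts named above, 8 on the higher and 3 on the lower side were among them.

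Dopamine neuron markers varied over a wide range between animals of the same category and did not separate the categories. The summed level of 18 markers was 57.7 to 1897 CPM (median 266) in the very heavy drinkers and 285, 1603, 62.0, 363 and 153 CPM in heavy drinkers 1 to 5, against 59.4 to 2057 CPM (median 304) in the controls. The difference was 0.58 on the log2 scale (p = 0.62, exact permutation test within cohort; adjusted p = 0.996 over 14 summed levels and library measures). Without very heavy drinker 3 the difference was −0.0613. The summed level was above 0 in all 14 punches, while 7 of the 18 markers had no count in 1 or more animals. In bulk tissue fewer cells of a type and less RNA per cell cannot be told apart.

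Single dopamine genes showed the same spread. TH was at 10.3 to 464 CPM (median 77.2) in the very heavy drinkers and at 77.6, 712, 5.58, 109 and 35.3 CPM in the heavy drinkers. Its log2 fold change was 0.32 ± 1.29 (SE), −0.27 in cohort 1 and 2.10 in cohort 2. SLC6A3 differed by 1.62 ± 1.32 and SLC18A2 by 0.92 ± 1.36, and with 1 animal left out they reached −0.77 and −1.54. Their pooled medians ran the other way, 51.7 CPM in the very heavy against 71.4 in the heavy drinkers for SLC6A3 and 10.85 against 13.07 for SLC18A2. The autoreceptor DRD2 differed by 0.68 ± 1.29 and was without a count in heavy drinkers 3 and 4. KCNJ6, a subunit of the potassium channel through which that receptor slows the neurons, had 12.1, 4.78 and 12.7 CPM in the very heavy and 6.58, 6.25, 1.59 and 6.62 CPM in the heavy drinkers of cohort 1, and its fold change was 0.81 ± 0.47. The standard errors of TH, SLC6A3, SLC18A2 and DRD2 ran from 1.29 to 1.36, and the 95% interval of TH, −2.21 to 2.85 on the log2 scale, allows a sizeable change in either direction.

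Kappa opioid signalling, in which dynorphin restrains dopamine release, showed no difference larger than the spread. OPRK1, the kappa receptor, had 3.59 to 16.1 CPM (median 3.87) in the very heavy and 7.06, 13.9, 2.45, 4.34 and 9.23 CPM in the heavy drinkers. Its log2 fold change was −0.17 ± 0.49. PDYN, the dynorphin precursor, had 3.06 to 18.0 CPM (median 8.10) against 4.59, 26.7, 3.58, 4.17 and 15.5 CPM, a fold change of −0.29 ± 0.59. PENK, the enkephalin precursor, differed by 0.32 ± 0.38. Of 14 tested members of the opioid list, which also holds peptide-processing enzymes, receptor kinases and an arrestin, 6 had a positive estimate and 0 an unadjusted p under 0.05, and the arrestin ARRB1 came nearest with −0.27 ± 0.13. OPRM1 had no count in 9 of the 14 animals.

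**Figure D3:**
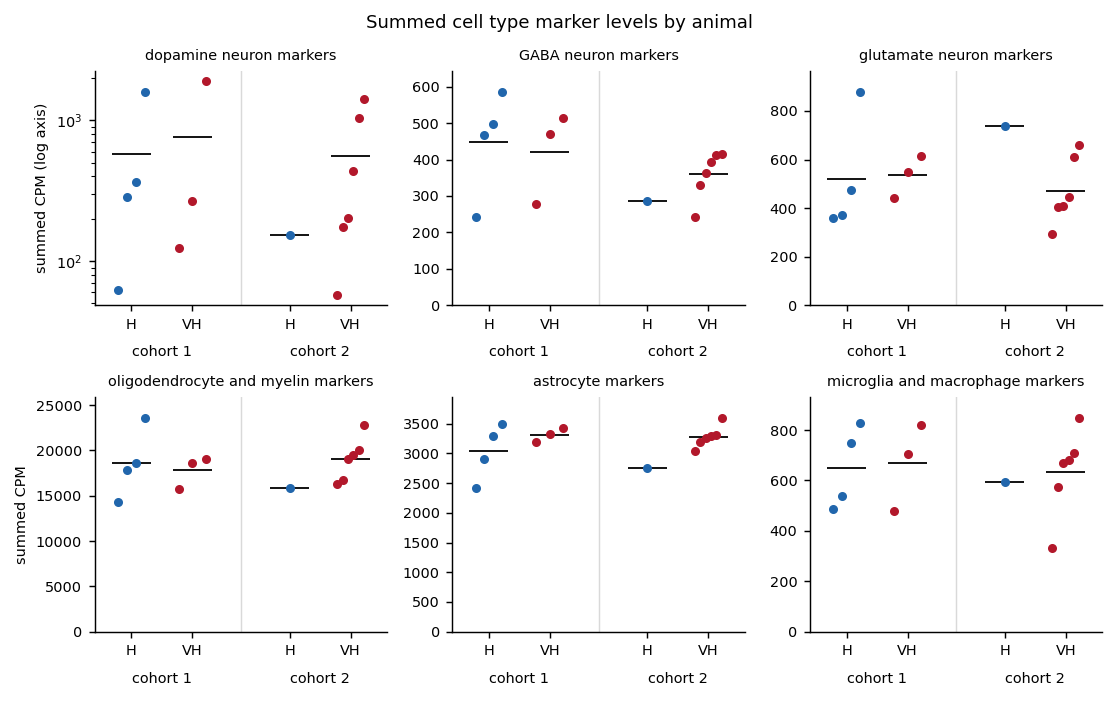
Summed CPM of 6 cell type marker lists by animal (vertical axes from 0 except the dopamine panel, which is logarithmic), for heavy (H, blue) and very heavy (VH, red) drinkers by cohort, with lines at the means. Dopamine markers ran from 57.7 to 1897 CPM within the very heavy drinkers alone, while astrocyte markers stayed between 2427 and 3593 CPM in all 14.

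Markers of other neurons and of glia did not differ between the categories beyond their spread. GABA neuron markers summed to 242 to 514 CPM in the very heavy and 243 to 585 CPM in the heavy drinkers, and glutamate neuron markers to 292 to 660 and 362 to 878 CPM. Oligodendrocyte and myelin markers were at 15790 to 22850 and 14310 to 23550 CPM, microglia and macrophage markers at 330 to 847 and 489 to 827 CPM. Astrocyte markers were at 3045 to 3593 CPM (median 3288) in the very heavy and at 2427, 3299, 3503, 2914 and 2752 CPM in the heavy drinkers, a log2 difference of 0.18 (p = 0.0653, exact permutation test; adjusted p = 0.914). The smallest p that the 245 arrangements allow is 0.00408. Markers of serotonin neurons, of cholinergic motor neurons, of oligodendrocyte precursors, of endothelial cells and pericytes, of ependyma and choroid plexus and of blood had exact p-values of 0.404 to 0.996. In cohort 1 the ependymal and choroid plexus sum was 29.4 to 63.6 CPM in the very heavy and 64.9 to 371 CPM in the heavy drinkers, without overlap (log2 difference −1.745, exact p = 0.0571), and over both cohorts the difference was −0.634. In cohort 2 the very heavy drinkers had 30.9 to 749 CPM and the heavy drinker 38.4.

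NTSR2 belongs to the astrocyte list, and so does the aldolase ALDOC, at 1837, 1827 and 1555 CPM in the very heavy and 1263, 1376, 1549 and 1279 CPM in the heavy drinkers of cohort 1. ALDOC differed by 0.30 ± 0.10 with an unadjusted p of 0.00931. Of the 8 astrocyte transcripts with 10 or more counts in every animal, these included, 5 had a positive estimate, and of the 6 besides NTSR2 and ALDOC 3 had one. The listed GFAP transcript was low, at 0.387 to 7.40 CPM in the very heavy drinkers and 2.07, 44.2, 4.99, 2.45 and 4.12 CPM in the heavy drinkers, and differed by −0.996 ± 0.93. LHX1, a transcription factor of the GABA list with as few as 2 counts in an animal, differed by −2.06 ± 0.74 (unadjusted p = 0.0153), with the same sign in both cohorts. Of the 11 GABA list members tested, 7 had a positive estimate, and the list's median was 0.11.

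The 33 gene lists held 515 transcripts that entered the test, of which 0 passed the adjusted threshold with edgeR (limma-voom 0, DESeq2 3), 18 were higher (3.50%, against 2.28% of all transcripts tested) and 13 lower (2.52%, against 2.57%) at an unadjusted p under 0.05. Positive estimates were 262 of these 515, and 6130 of the 12934 transcripts tested overall. Among transcripts with 10 or more counts in every animal the median log2 fold change was 0.00 and 3991 of 7980 estimates were positive, and the lists below are set against that. By the mRNA length described further on, 71.3% of estimates were positive in the shortest of 5 groups and 28.2% in the longest.

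Lists of receptors, channels and release genes differed in sign. Of 12 well-detected ionotropic glutamate receptor subunits, 2 had a positive estimate, and the median was −0.20 (cohort 1 −0.20, cohort 2 −0.29). Over the 14 tested it was −0.25, and −0.13 without heavy drinker 1. GRIN2A and GRIN3A, subunits of the NMDA receptor, on which ethanol acts directly, had unadjusted p-values of 0.0272 and 0.0194. GRIN2A had 6.30, 9.41 and 4.67 CPM in the very heavy and 12.1, 16.9, 11.8 and 5.93 CPM in the heavy drinkers of cohort 1, and 1.75 to 9.52 CPM against 11.4 in cohort 2. The ranges overlapped in cohort 1 and the log2 fold change was −0.94 ± 0.38. GRIN3A differed by −0.69 ± 0.26.

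Of 14 well-detected potassium and pacemaker channels, 2 had a positive estimate, and the median was −0.24 (cohort 1 −0.34, cohort 2 −0.27). Over the 20 tested it was also −0.24, with −0.43 without very heavy drinker 2 and −0.37 without heavy drinker 3. The lowest unadjusted p of the list (0.0146) belonged to KCNMB1, a regulatory subunit of the BK channel, which was without a count in 11 of the 14 animals and stood at 13.7, 1.23 and 0.398 CPM in very heavy drinkers 2, 6 and 9. KCNQ3, a subunit of the M-current channel, had 7.22 to 17.3 CPM (median 13.0) in the very heavy and 11.8, 19.95, 18.5, 6.87 and 19.0 CPM in the heavy drinkers, and differed by −0.70 ± 0.26 (unadjusted p = 0.0189). The list also held KCNJ6, with the positive estimate given above, so its members did not all share a sign. Of 11 well-detected genes of synaptic vesicle release, 3 had a positive estimate, and the median was −0.18 (cohort 1 −0.10, cohort 2 −0.34). Over the 19 release genes tested the median was −0.07, and it was 0.12 without heavy drinker 5. UNC13A, which primes vesicles for fusion, differed by −0.56 ± 0.25 (unadjusted p = 0.042). The endocannabinoid list had 3 positive estimates among 6 tested members and a median of 0.01. In it CNR1, the cannabinoid receptor of nerve terminals, with as few as 8 counts in an animal, differed by −1.41 ± 0.60 (unadjusted p = 0.034). With 1 animal left out the median of the endocannabinoid list ran from −0.2 to 0.29. Its 2 well-detected members had medians of 0.29 in cohort 1 and −0.50 in cohort 2. Of 4 well-detected nicotinic receptor subunits 2 had a positive estimate, with a median of 0.01 (cohort 1 0.28, cohort 2 −0.425). Over the 9 subunits tested the median was 0.16, and it ran from −0.16 to 0.33 with 1 animal left out. The GABA-A receptor list had 4 well-detected members, the anchoring protein GPHN among them, all with positive estimates and a median of 0.30, while the 13 members that entered the test had a median of −0.30, which was 0.15 without very heavy drinker 2.

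Stress genes gave no call with edgeR. The corticotropin-releasing factor and corticosteroid list held 8 well-detected members, 2 with a positive estimate, and their median was −0.23. Over the 12 members tested it was −0.18, and −0.011 without heavy drinker 4. FKBP5, a co-chaperone induced by glucocorticoids, had 65.6, 57.2 and 65.9 CPM in the very heavy and 69.9, 88.1, 68.0 and 92.2 CPM in the heavy drinkers of cohort 1, without overlap. In cohort 2 it had 54.2 to 98.4 CPM against 64.5. The log2 fold change was −0.21 ± 0.17 over both cohorts (unadjusted p = 0.243, edgeR) and 0.095, of opposite sign, in cohort 2 alone. The glucocorticoid receptor NR3C1 differed by −0.16 ± 0.21, the glucocorticoid-induced TSC22D3 by −0.27 ± 0.13, HSD11B1, which regenerates active glucocorticoid, by −1.04 ± 0.54, and CRHBP, the binding protein of corticotropin-releasing factor, by 0.45 ± 0.40. CRH was at 2.55 CPM or below in all 14 animals, CRHR1 had no count in 7 of them, and BDNF, a growth factor of the neurotrophic list, had none in 6.

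**Figure D4:**
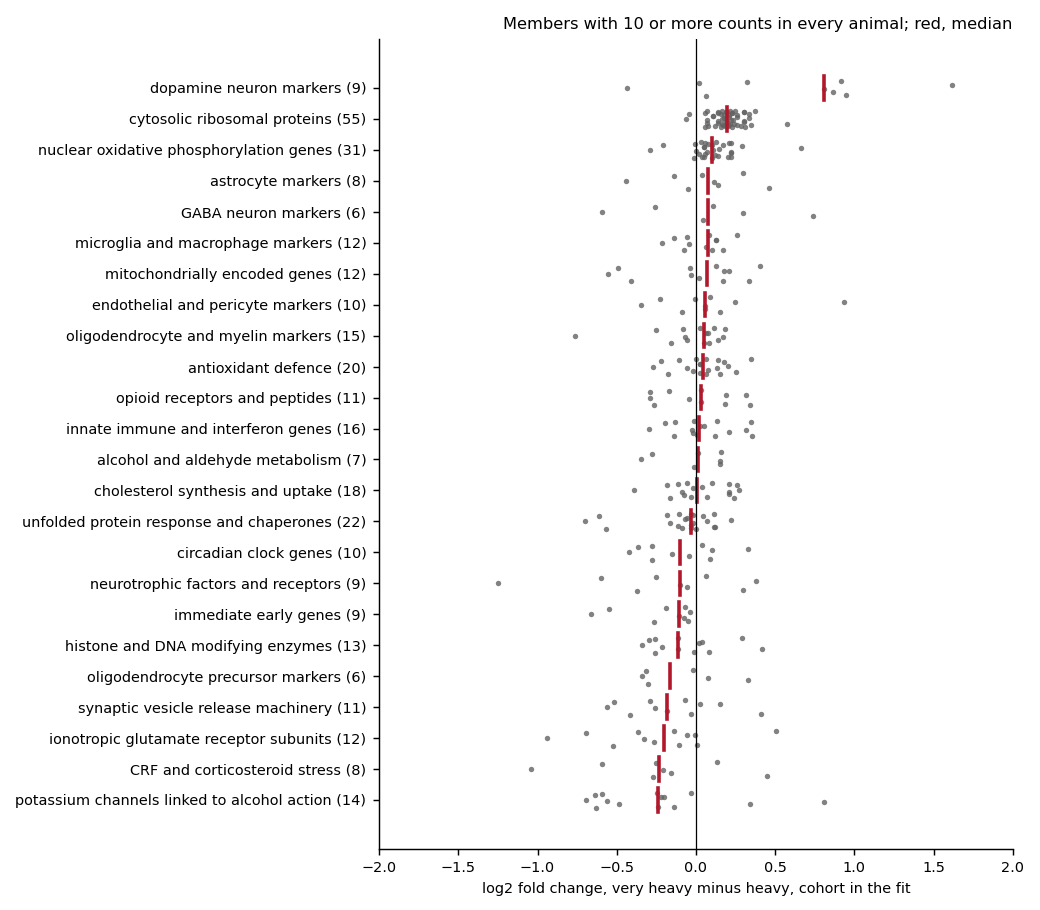
Log2 fold change of very heavy minus heavy drinkers (horizontal axis) for the members with 10 or more counts in every animal of each list with at least 6 such members (vertical axis, number in parentheses), 1 point per transcript, with the list median in red. Ribosomal proteins form a tight cluster at a median of 0.19, glutamate receptors and potassium channels have medians of −0.20 and −0.24, and dopamine markers have the highest median, 0.81, with members spread from −0.43 to 1.62 (0.49 over all 18 tested, −0.56 without very heavy drinker 3).

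Immediate early genes, which neurons and glia switch on within minutes of activation, had 9 well-detected members with 0 positive estimates and a median of −0.11. The medians were −0.42 in cohort 1 and 0.17 in cohort 2, and 0.04 over both cohorts with the length score described further on. Over the 15 tested the median was −0.11, and it ran from −0.42 to −0.06 with 1 animal left out. None of the 15 had an unadjusted p under 0.05. Of 22 well-detected chaperones and genes of the unfolded protein response, 6 had a positive estimate, with a median of −0.03. PDIA3, a disulfide isomerase of the endoplasmic reticulum named here after its values were seen, differed by 2.47 ± 1.08 (unadjusted p = 0.039) with as few as 9 counts in an animal. Besides HSPA8 the list held EIF2AK3, a kinase that slows translation under stress of the endoplasmic reticulum, at 13.7, 16.6 and 15.4 CPM in the very heavy and 32.3, 28.0, 29.1 and 15.0 CPM in the heavy drinkers of cohort 1, and it differed by −0.61 ± 0.20 (unadjusted p = 0.00748).

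Chromatin, neurotrophic and metabolic lists gave no call with edgeR. HDAC1, a histone deacetylase, differed by 0.29 ± 0.13 and DNMT3A, a DNA methyltransferase, by −0.34 ± 0.15 (unadjusted p = 0.0409 and 0.0356), within a list of 13 well-detected enzymes with a median of −0.11. The median of the 13 was 0.04 with the length score described further on. Over the 26 enzymes tested the median was −0.235, and it ran from −0.286 to −0.021 with 1 animal left out. Of 9 well-detected neurotrophic genes 3 had a positive estimate, with a median of −0.10 (cohort 1 −0.28, cohort 2 0.21), which was 0.01 with the length score. Over the 14 tested the median was −0.08, and it ran from −0.22 to −0.06 with 1 animal left out. SORT1, a sorting receptor for neurotrophins, differed by −0.38 ± 0.15 and the receptor kinase ALK by −0.60 ± 0.28. INSIG1, a brake on cholesterol synthesis, differed by 0.21 ± 0.10 in a list of 18 with a median of 0.01, and GSS, which completes glutathione synthesis, by 0.35 ± 0.14 in a list of 20 with a median of 0.05. Innate immune genes (16 well-detected members) had a median of 0.02, alcohol and aldehyde metabolism (7) 0.01 and circadian clock genes (10) −0.10.

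Cytosolic ribosomal proteins had estimates almost all on one side. All 58 listed transcripts entered the test, 55 of them had 10 or more counts in every animal, and 53 of those 55 had a positive estimate, with a median of 0.19 (cohort 1 0.24, cohort 2 0.09). The median over the 58 was 0.12 without very heavy drinker 1 and 0.13 without heavy drinker 1, and that of the 55 turned to −0.07 with the length score described further on as a covariate. RPS26 had 369, 425 and 318 CPM in the very heavy and 216, 258, 310.2 and 310.4 CPM in the heavy drinkers of cohort 1, and 261 to 351 CPM (median 288) against 257 in cohort 2, so each cohort was without overlap. Its log2 fold change was 0.35 ± 0.12 (unadjusted p = 0.0114). RPL12 differed by 0.31 ± 0.13, and 6 of the 58 ribosomal proteins (10.3%) had an unadjusted p under 0.05, each with higher values in the very heavy drinkers, against 2.28% of all transcripts tested and 5.41% of the shortest length group described below. Many ribosomal protein genes, and also EEF1B2, TMA7, HMGB1 and HSPA8, have near-identical copies in the genome with which their reads could be shared, so single values are uncertain.

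Nuclear genes of oxidative phosphorylation had 27 positive estimates among 31 well-detected members and a median of 0.10 (cohort 1 0.17, cohort 2 0.03). The median over the 35 tested was 0.044 without very heavy drinker 1, 0.061 without heavy drinker 4 and 0.17 without heavy drinker 5, and that of the 31 turned to −0.03 with the length score. NDUFA1 differed by 0.29 ± 0.12 and NDUFV2 by 0.67 ± 0.26. The 12 well-detected mitochondrially encoded transcripts had 7 positive estimates and a median of 0.07, and ND3, at 3911 to 7230 CPM in the very heavy and 3598 to 6037 CPM in the heavy drinkers, differed by 0.33 ± 0.15 (unadjusted p = 0.0454). Over the 13 mitochondrially encoded transcripts tested the median was 0.016, and it ran from −0.34 to 0.15 with 1 animal left out.

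The estimates varied with mRNA length. A length in Mmul_10 RefSeq mRNAs was found by gene symbol for 7760 of the 7980 well-detected transcripts (97.2%), and these were divided by length into 5 groups of equal size. The length is the median over a symbol's RefSeq mRNAs, from which that of the counted transcript may differ. From the shortest to the longest group the median log2 fold change was 0.10, 0.04, 0.00, −0.04 and −0.12. Of the 1552 shortest transcripts 5.41% had an unadjusted p under 0.05 with higher and 0.387% with lower values in the very heavy drinkers. Of the 1551 longest the shares were 0.193% and 7.61%. Estimates were positive for 71.3% of the shortest and 28.2% of the longest group. The shortest group ran to 1556 bases and the longest began at 4694. In cohort 1 the medians ran from 0.11 to −0.16 and in cohort 2 from 0.09 to −0.04. Without cohort in the fit they ran from 0.04 to −0.04. When each animal was left out in turn, the shortest group had medians of 0.06 to 0.12 and the longest −0.16 to −0.10.

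A length score per animal, the median log2 deviation of the longest minus that of the shortest group, was −0.42, −0.16 and −0.21 in very heavy drinkers 1 to 3 and 0.04, −0.01, −0.16 and 0.04 in heavy drinkers 1 to 4. The categories were apart in cohort 1, but the nearest animals, very heavy drinker 2 at −0.162 and heavy drinker 3 at −0.158, almost met. In cohort 2 the very heavy drinkers had −0.21 to 0.21 (median 0.08) and the heavy drinker 0.18, within their range. The score was defined after the pattern had been seen, and no test was made of it. It was built from well-detected transcripts of these same animals, list members among them. As a covariate it therefore moves the medians of short and of long transcripts toward 0 partly by construction. With it the medians of the 5 length groups were −0.003, −0.001, −0.017, −0.001 and −0.019. With the score as a further covariate, the ribosomal protein median was −0.07 in place of 0.19, that of nuclear oxidative phosphorylation −0.03 in place of 0.10, that of the potassium and pacemaker channels −0.08 in place of −0.24, and that of the glutamate receptors −0.19 in place of −0.20. Other list medians moved away from 0, that of dopamine neuron markers to 2.34 from 0.81, of astrocyte markers to 0.23 from 0.08, of microglia and macrophage markers to 0.23 from 0.07 and of mitochondrially encoded transcripts to 0.25 from 0.07. The part of RNA quality or library preparation in this pattern was not tested.

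**Figure D5:**
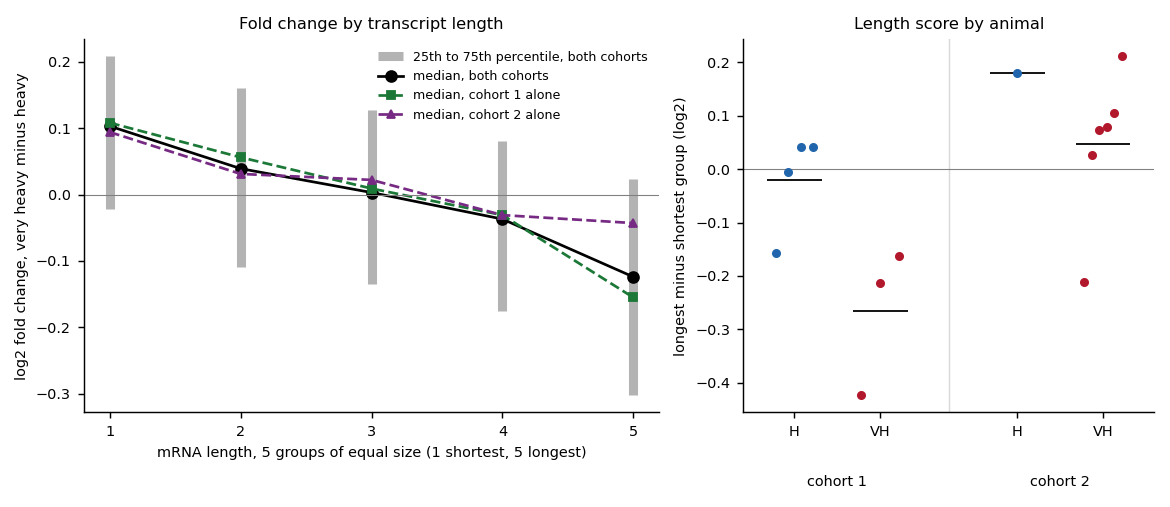
Left, median log2 fold change of very heavy minus heavy drinkers (vertical axis) by mRNA length in 5 groups of equal size (horizontal axis), with the 25th to 75th percentile as grey bars and the medians of each cohort alone. Medians run from 0.10 in the shortest to −0.12 in the longest group. Right, the length score (log2, longest minus shortest group) of each animal by category (H heavy, VH very heavy) and cohort, with lines at the means, apart in cohort 1 and overlapping in cohort 2.

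The main axes of variation between the 14 animals did not divide the categories. The first 5 principal components held 13.1%, 10.8%, 10.6%, 9.75% and 8.70% of the variance of log2 CPM. The fourth had the lowest p for category (0.0653, exact permutation test within cohort; adjusted p = 0.276 over 5), with scores of −11.9 to 41.8 in the very heavy and −103 to 4.88 in the heavy drinkers, and the first had an exact p of 0.11.

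Between cohorts the estimates differed at 4 transcripts past an adjusted p of 0.05 (edgeR, interaction of category and cohort) and at 606 (4.69%) by unadjusted p. Cohort 2 holds 1 heavy drinker, so this comparison rests on that animal.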

How the data were processed

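RNA from VTA punches of 28 macaques had been prepared with the Nugen Universal Plus mRNA kit. The authors trimmed the reads with Trim Galore 0.6.7, quantified them with Salmon 1.9.0 against Mmul_10 and deposited estimated counts without normalization, 1 column per animal and 1 listed transcript per gene symbol. Versions are per the submitters' processing notes, which also name DESeq2 1.36.0. Of 16886 entries, 1 without a symbol (1.16e-05% of counts) was left out. Categories came from the sample labels, cohorts from the animal numbers, and replicate numbers follow the order of submission.

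Counts were rounded, and the test kept the 12934 transcripts that reached 5 counts in 3 or more of the 14 animals. The main test was edgeR 4.0.16 (TMM, quasi-likelihood, cohort and category, Benjamini-Hochberg, threshold 0.05, R 4.3.3). A standard error is the size of the log2 fold change divided by the square root of F, and 95% intervals use 1.96 standard errors. CPM use TMM factors over 28 animals. Alternatives used DESeq2 1.42.0, limma 3.58.1 (voom), other filters, covariates and samples, and each animal left out. Single values per animal were compared by an exact two-sided permutation of categories within cohort (245 arrangements, Python 3.11.15, numpy 2.4.6). The tests were tried on simulated data. Principal components used log2 CPM with a prior count of 2. Coordinates and mRNA lengths came from Mmul_10 RefSeq annotation by symbol.

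The comparison and the 33 gene lists were chosen with earlier results of these data known. The text names the 10 transcripts with the lowest unadjusted p in each direction among those with at least 10 counts in every animal, the leading members of the lists, and a fixed set of dopamine, opioid, stress and glial genes, of which ALDH2 was not matched and ALDH1A1 had no count in 4 animals. The length groups and length score were added after seeing the data. Some list members that this rule names are not reported here. No value of intake or dopamine release was used. Depth was 14338555 to 26742953 counts per animal, and intervals cover no error of the library preparation.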

Additional observations from a re-analysis of the deposited data

Results flagged for a closer look

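Of 140 checks of a category's values, 6 found a value that stood apart from the other animals of their category by a gap that was large for the category's range (Dixon's criterion at 95%), where chance flags about 1 in 20. Very heavy drinker 3 had the lowest summed endothelial and pericyte markers of its category (387.5 CPM) and very heavy drinker 2 the highest summed blood markers (10.65 CPM). SLC3A2 was lowest in very heavy drinker 2 (33.99 CPM). Among the heavy drinkers EIF2AK3 was lowest in animal 4 (14.95 CPM) and KCNJ6 in animal 3 (1.587 CPM), and GFAP was highest in animal 2 (44.15 CPM).

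The difference between very heavy and heavy drinkers was itself different between cohorts for 4 transcripts (edgeR, interaction of category and cohort, adjusted p of 0.00262 to 0.0481). The fitted interactions were 15.85 for ANKZF1, −3.67 for CDH23, 10.37 for GAR1 and 11.01 for RNF24 on the log2 scale. Heavy drinker 5, the only heavy drinker of cohort 2, had no count of ANKZF1, GAR1 and RNF24 and 30.5 CPM of CDH23, so the sizes of the first 3 are no measure of a fold. ANKZF1, a stress-related protein of ribosome quality control, had no count in very heavy drinkers 1 to 3 either, against 1.59 to 2.22 CPM in heavy drinkers 1 to 4 and 0.635 to 1.33 CPM in very heavy drinkers 4 to 9. CDH23, a cadherin, was at 14.8, 6.81 and 13.1 CPM in very heavy drinkers 1 to 3 and at 4.26 to 7.53 CPM in heavy drinkers 1 to 4.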

How the results depend on the processing

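The absence of adjusted calls held with DESeq2's size factors in edgeR, limma-voom, other filters, without mitochondrial transcripts, without cohort, with dopamine, myelin or length scores as covariates (the last chosen after seeing the data), over 28 animals and in cohort 1 alone, with 435 to 863 transcripts at an unadjusted p under 0.05. These fits tested differing numbers of transcripts, and the 435 were of the 7980 with 10 or more counts in every animal. DESeq2's Wald test gave 91 calls, 944 at the unadjusted threshold and 3 in the lists, and cohort 2 alone gave 2 calls, PCCB and SEMA6A, both without a count in heavy drinker 5, which is assumed there to vary like the other animals. Leaving out 1 animal gave 0 to 5 calls (469 to 1054 unadjusted), and the 5 arose without heavy drinker 5, where 1054 were unadjusted. Cohort 2 then held no heavy drinker, so with cohort in the fit that contrast rested on cohort 1. Of the 5, ANKZF1, MAP3K20, STK10 and TMEM164 had no count in 3 very heavy drinkers, and GCN1 had counts in every animal. Why this fit gave more calls than cohort 1 alone was not tested. Permuted without regard to cohort, 1 of 5 principal components passed (unadjusted exact p = 0.00699) and astrocyte markers differed by 0.155 (exact p = 0.0485). Differences in summed markers changed sign for GABA neurons (−0.0896), oligodendrocyte precursors (0.0878), microglia (−0.00653) and endothelium (0.085) in that setting, and for GABA (−0.0697) and glutamate neurons (0.122), myelin (−0.0414), endothelium (0.0104) and mitochondrial share (−0.675 percentage points) in cohort 1 alone. With 1 animal left out the log2 differences were −0.0613 to 1.14 for dopamine (negative without very heavy drinker 3), −0.106 to 0.241 for GABA, −0.267 to 0.122 for glutamate and −0.0122 to 0.211 for serotonin neurons, −0.0414 to 0.143 for myelin, 0.116 to 0.228 for astrocytes (unadjusted exact p under 0.05 without heavy drinker 2 or 3), −0.0624 to 0.176 for microglia, −0.101 to 0.168 for endothelium, −1.745 to −0.254 for ependyma and choroid plexus (−1.745 without heavy drinker 5, −0.254 without heavy drinker 2) and −0.503 to 0.258 for blood, and −2.53 to 2.24 percentage points for mitochondrial share. In the same setting TH ran from −1.03 to 1.75, SLC6A3 from −0.77 to 2.38, SLC18A2 from −1.54 to 2.01, DRD2 from −0.26 to 1.56, OPRK1 from −0.85 to 0.17, PDYN from −0.87 to 0.38 and GFAP from −1.28 to 0.35. These 7 and 9 others of 56 named transcripts moved by over 1.5 times, the others keeping their sign: ALK −0.76 to −0.33 (the latter without heavy drinker 1), SORT1 −0.57 (without heavy drinker 5) to −0.26, NDUFA1 0.16 (without very heavy drinker 1) to 0.36, CRHBP 0.23 (without very heavy drinker 2) to 0.69 (without heavy drinker 2), NR3C1 −0.25 (without heavy drinker 3) to −0.089 (without heavy drinker 2), NDUFAF3 −0.66 to −0.37, ARRB1 −0.42 to −0.19, FKBP5 −0.35 to −0.13 and PENK 0.15 to 0.53. Estimates of the opposite sign were −0.27 (cohort 1) and −0.21 (no cohort) for TH, −0.59 (dopamine score) and −0.036 (limma-voom) for SLC18A2, 0.17 (cohort 1), 0.079 (myelin score) and 0.32 (length score) for OPRK1, −0.061 (cohort 2) and −0.14 (length score) for PENK, 0.10 (cohort 2) and 0.044 (length score) for FKBP5, 0.067 (28 animals) for NR3C1, 0.25 (length score) for GFAP, and 0.053 and 0.056 (cohort 2) for SORT1 and ARRB1. The 20 lowest-p transcripts kept their sign in every setting run, but they were chosen from these same animals, so this is a description and no independent check. No paired analysis was possible because replicate numbers only count the animals of a category and pair none of them.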
